A study of Mus musculus with 9 samples.

Results

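A set of 10 genes of the epithelial to mesenchymal transition was followed through a cardiac differentiation of mouse embryonic stem cells. They are the transcription factors Snai1, Snai2, Twist1, Twist2, Zeb1 and Zeb2, the mesenchymal genes Vim and Fn1, and the epithelial genes Epcam and Ocln. The genes were taken from a list by name, at array rows that carry exactly 1 gene symbol, with the brightest row kept for each gene. Of the 10 listed genes 9 had such a row, each of them a single row, out of 14860 genes in all. No row was named for Twist2, which was therefore not analysed here.

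The cells came from the line E14.1 (129/Ola), and 9 Affymetrix Mouse Exon 1.0 ST arrays held 3 groups of 3. The cTnT+ group held cardiomyocyte cultures, named for cardiac troponin T (gene Tnnt2), grown on from sorted Flk1+Pdgfra+ cells. The Flk1+Pdgfra+ group held cardiac progenitors sorted for both receptors, Flk1 (gene Kdr) and Pdgfra. The Flk1+ group held progenitors sorted as positive for Flk1 and negative for Pdgfra, here called by the shorter name of their array titles. All groups stem from this 1 cell line. The labels give no days of culture, no genotype change and no treatment beyond the differentiation, and they do not say whether the cTnT+ cells were sorted. Whether a group's arrays stem from different cultures is not stated, and the p-values therefore reflect the spread among arrays alone, part of which may be technical.

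In the epithelial to mesenchymal transition, cells that are joined by junctions and hold an apical side let go of their neighbours and become motile. Gastrulation is the textbook case: epiblast cells pass through the primitive streak in this way and become mesoderm. Factors of the Snail, Zeb and Twist families drive the change, largely by binding short DNA motifs called E-boxes, and the Snail and Zeb proteins repress epithelial adhesion genes. A later round of the same change occurs in the heart, where endocardial cells form the valve cushions and epicardial cells give rise to fibroblasts and smooth muscle.

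Values are log2 expression after the authors' RMA processing, so that 1 unit is a doubling on the array's scale, and the levels of different genes cannot be set against each other. Array medians lay between 7.26 and 7.53 over all 23332 rows. Among the sort markers, Pdgfra averaged 20.9-fold higher in Flk1+Pdgfra+ than in Flk1+ (limma, adjusted p = 0.000327), and Tnnt2 averaged 38.4-fold higher in cTnT+ than in Flk1+Pdgfra+ (adjusted p = 1.3e-05). Pdgfra was not told apart between cTnT+ and Flk1+Pdgfra+ (-0.04, adjusted p = 0.925). Tnnt2 was 2.54-fold lower in Flk1+Pdgfra+ than in Flk1+ (adjusted p = 0.0289). Kdr was 2.2-fold lower in cTnT+ than in Flk1+Pdgfra+ (adjusted p = 0.00575). The progenitor groups were not told apart by Kdr (-0.33, adjusted p = 0.445). One array stood apart. The third Flk1+ array held Nanog at 10.99 and Pou5f1 at 10.73, pluripotency factors that its fellow Flk1+ arrays held at 6.21 and 6.43 (Nanog) and at 6.69 and 7.41 (Pou5f1). In Flk1+Pdgfra+ they lay at 10.56 to 11.33 and 10.47 to 11.22. Both were named after their values were seen. Not every listed pluripotency marker departed as far: Esrrb, also named after its values were seen, read 6.96, 7.04 and 7.24 on the Flk1+ arrays.

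Differences were tested with limma across all 14860 genes, and rose and fell are used of genes with a Benjamini-Hochberg adjusted p under 0.05. In cTnT+ against Flk1+Pdgfra+, 5 of the 9 measured genes rose and 2 fell, where 41.2% of all genes were called (22.5% higher and 18.7% lower). Among the progenitors, Flk1+Pdgfra+ against Flk1+, 1 rose and 3 fell, where 10.5% of all genes were called (4.64% higher and 5.87% lower). Against Flk1+, 2 rose and 0 fell in cTnT+, where 39.2% were called (22.6% higher and 16.6% lower). There 6 of the 9 had an unadjusted p under 0.05, a threshold at which the share of all genes was not counted. The median size of the difference, regardless of sign, was 1.73 log2 units for the 9 genes and 0.32 for all genes in the comparison of cTnT+ with Flk1+Pdgfra+. It was 0.67 and 0.18 in Flk1+Pdgfra+ against Flk1+, and 0.68 and 0.31 in cTnT+ against Flk1+. Counts of called genes from all 9 arrays, here and in the gene lists below, are to be read against these shares of all genes. Other fits have other shares: without the third Flk1+ array 1306 genes rose in Flk1+Pdgfra+ against Flk1+, in place of 690. The 3 comparisons share arrays and are no independent readings of a gene.

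**Figure D1:**
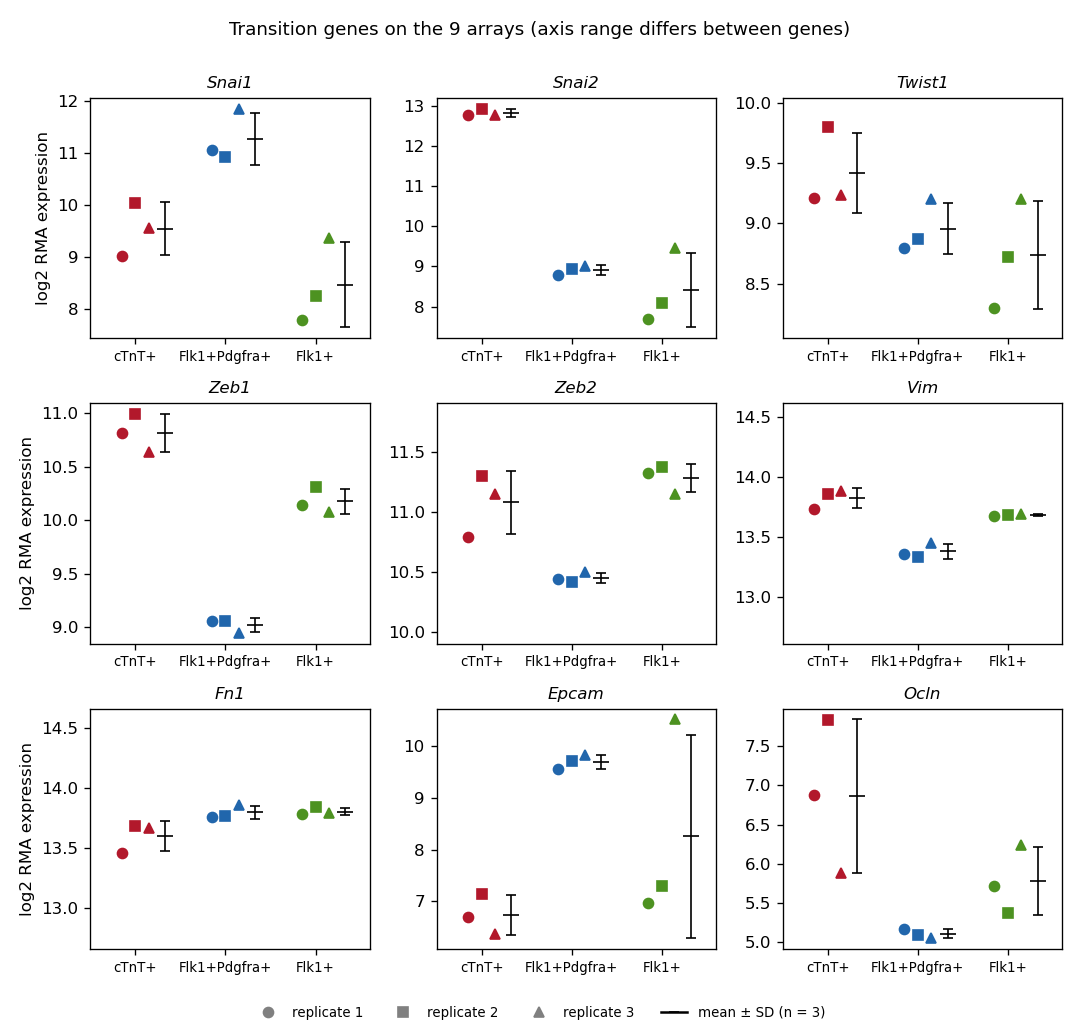
Expression of the 9 measured genes on each array (vertical axis, log2 RMA values, with a separate range for each gene) in cTnT+, Flk1+Pdgfra+ and Flk1+ (horizontal axis). Coloured symbols are single arrays and black bars the mean ± SD of 3 arrays; Snai1 stands highest in Flk1+Pdgfra+, Snai2 in cTnT+, and the third Flk1+ array holds Epcam at 10.51.

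Snai1, the Snail factor without which mouse mesoderm keeps epithelial features, was highest in the Flk1+Pdgfra+ progenitors. It read 9.03, 10.05 and 9.57 on the cTnT+ arrays, 11.06, 10.94 and 11.86 on the Flk1+Pdgfra+ arrays, and 7.79, 8.25 and 9.38 on the Flk1+ arrays (transcript cluster 6883321). Every Flk1+Pdgfra+ array stood above every array of the other groups, while the cTnT+ and Flk1+ ranges overlapped. Snai1 rose 7.01-fold in Flk1+Pdgfra+ against Flk1+ (11.28 ± 0.50 and 8.47 ± 0.81, SD, n = 3 each, limma adjusted p = 0.00664). It fell by 1.73 log2 units in cTnT+ against Flk1+Pdgfra+ (9.55 ± 0.51 in cTnT+, adjusted p = 0.0134). Both calls held whichever array was left out. The difference of 1.08 between cTnT+ and Flk1+, which follow it in level, did not pass (95% interval 0.06 to 2.09, adjusted p = 0.0891). Without the third Flk1+ array it was 1.53 and passed (adjusted p = 0.0126).

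Snai2, also called Slug, is the Snail factor of later mesenchyme, including cells that leave the endocardium and epicardium. In cTnT+ against Flk1+Pdgfra+ it ran the other way from Snai1. Its values were 12.76, 12.92 and 12.76 in cTnT+, 8.78, 8.94 and 9.00 in Flk1+Pdgfra+, and 7.68, 8.09 and 9.45 in Flk1+ (transcript cluster 6839624). The cTnT+ arrays lay close together and far above all 6 progenitor arrays. Snai2 rose 15-fold in cTnT+ against Flk1+Pdgfra+ (12.81 ± 0.09 and 8.91 ± 0.12, limma adjusted p = 0.000119) and 21.2-fold in cTnT+ against Flk1+ (8.41 ± 0.93 in Flk1+, adjusted p = 9.12e-05). Over every alternative fit these differences ran from 3.80 to 3.95 and from 4.04 to 4.93 log2 units. The progenitor groups were not told apart, with a difference of 0.50 (95% interval -0.38 to 1.38, adjusted p = 0.465). Without the third Flk1+ array, which read highest of its group, Snai2 was 1.02 higher in Flk1+Pdgfra+ and passed (adjusted p = 0.00337). Snai3, the remaining Snail gene, was called in none of the comparisons (7.0 ± 0.46 in cTnT+, 6.57 ± 0.15 in Flk1+Pdgfra+, 6.48 ± 0.40 in Flk1+). It was named after its values were seen.

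Twist1, a basic helix-loop-helix factor of head, limb and valve mesenchyme, was called in none of the comparisons. It read 9.21, 9.80 and 9.24 in cTnT+, 8.80, 8.87 and 9.20 in Flk1+Pdgfra+, and 8.30, 8.72 and 9.20 in Flk1+ (transcript cluster 6794360). The cTnT+ arrays stood above all progenitor arrays by a narrow margin, and the progenitor groups overlapped. None of its differences passed limma: 0.46 for cTnT+ against Flk1+Pdgfra+ (95% interval -0.11 to 1.03, adjusted p = 0.184), 0.68 for cTnT+ against Flk1+ (0.10 to 1.25, adjusted p = 0.0629) and 0.22 for Flk1+Pdgfra+ against Flk1+ (-0.36 to 0.79, adjusted p = 0.639). The difference of cTnT+ from Flk1+ was 0.91 and passed without the third Flk1+ array (adjusted p = 0.0149).

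The Zeb factors, zinc finger repressors that are held in check in epithelia by microRNAs of the miR-200 family, were both lowest in Flk1+Pdgfra+, the group where Snai1 was highest. Zeb1 gave 10.82, 10.99 and 10.64 in cTnT+, 9.06, 9.06 and 8.95 in Flk1+Pdgfra+, and 10.14, 10.31 and 10.08 in Flk1+ (transcript cluster 6858575). Its groups did not overlap in any comparison. Zeb1 rose 3.47-fold in cTnT+ against Flk1+Pdgfra+ (10.82 ± 0.17 and 9.02 ± 0.06, limma adjusted p = 1.59e-05) and 1.56-fold in cTnT+ against Flk1+ (10.18 ± 0.12 in Flk1+, adjusted p = 0.00216). In Flk1+Pdgfra+ against Flk1+ it fell by 1.15 log2 units (adjusted p = 0.00116). Each of these 3 calls held in every alternative fit, so that the order cTnT+, Flk1+, Flk1+Pdgfra+ is one in which neighbours differ beyond their spread.

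Zeb2, known in the mouse embryo for its part in neural crest and in blood formation, gave 10.79, 11.30 and 11.15 in cTnT+, 10.44, 10.42 and 10.50 in Flk1+Pdgfra+, and 11.32, 11.37 and 11.15 in Flk1+ (transcript cluster 6886356). The Flk1+Pdgfra+ arrays were the lowest, and the cTnT+ and Flk1+ ranges overlapped. Zeb2 rose 1.54-fold in cTnT+ against Flk1+Pdgfra+ (11.08 ± 0.26 and 10.46 ± 0.04, limma adjusted p = 0.00548) and fell by 0.82 log2 units in Flk1+Pdgfra+ against Flk1+ (11.28 ± 0.11 in Flk1+, adjusted p = 0.00715). Both calls held in every alternative fit. Between cTnT+ and Flk1+ it differed by -0.20 (95% interval -0.50 to 0.11, adjusted p = 0.288).

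Markers of endothelium and blood differed between the same groups. Of 9 endothelial markers 8 fell and 0 rose in Flk1+Pdgfra+ against Flk1+, and 8 rose and 0 fell in cTnT+ against Flk1+Pdgfra+. Their mean log2 level was 10.19 to 10.91 on the cTnT+ arrays, 6.62 to 8.30 on the Flk1+Pdgfra+ arrays and 10.03 to 11.45 on the Flk1+ arrays. Of 9 blood markers 4 fell and 0 rose in Flk1+Pdgfra+ against Flk1+, and 4 rose and 1 fell in cTnT+ against Flk1+Pdgfra+, with mean levels of 8.28 to 8.87 in cTnT+, 6.89 to 7.26 in Flk1+Pdgfra+ and 7.95 to 8.76 in Flk1+. In cTnT+ against Flk1+ 1 endothelial marker rose and 1 fell, and 2 blood markers rose and 5 fell. Array values have no true zero, so no marker can be called absent. The part of these cell types in the Zeb differences was not tested. In such bulk samples fewer cells of a type and less RNA per cell cannot be told apart.

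**Figure D2:**
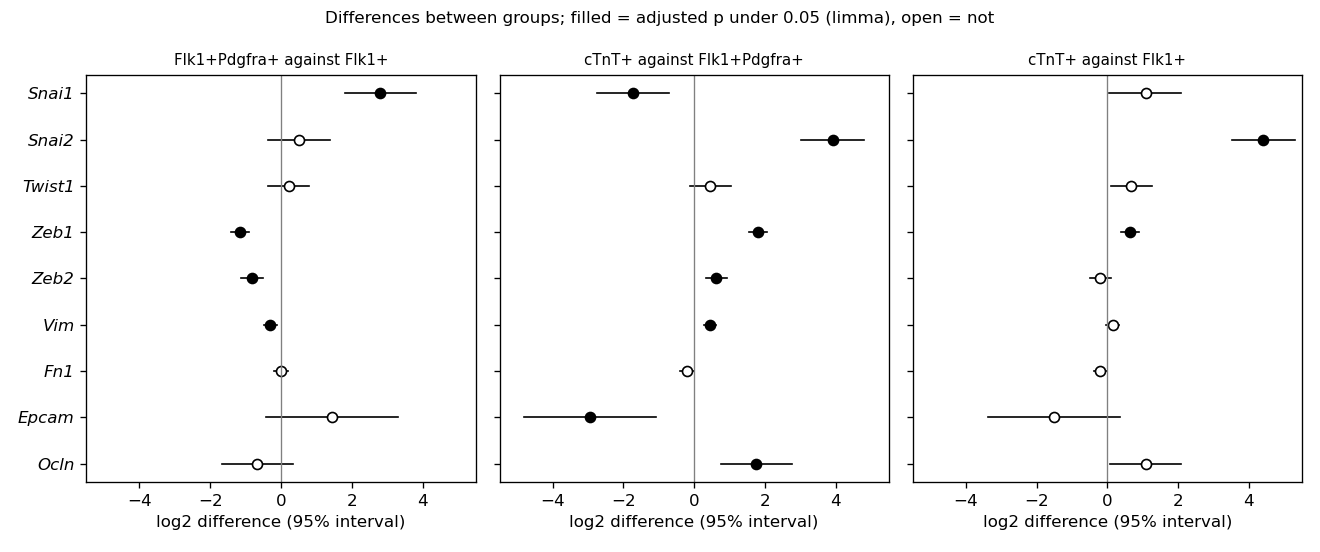
Log2 differences of the 9 measured genes (horizontal axis) with 95% intervals from the limma fit, with 1 panel for each comparison (left, Flk1+Pdgfra+ against Flk1+; middle, cTnT+ against Flk1+Pdgfra+; right, cTnT+ against Flk1+). Filled points passed an adjusted p of 0.05 and open points did not; Snai1 and the Zeb genes point in opposite directions in the left and middle panels.

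The mesenchymal genes Vim and Fn1 were bright in every group and moved little. Vim, the intermediate filament protein of mesenchymal cells, read 13.73, 13.86 and 13.88 in cTnT+, 13.36, 13.33 and 13.45 in Flk1+Pdgfra+, and 13.67, 13.68 and 13.69 in Flk1+ (transcript cluster 6875132). Small as they were, the gaps left no overlap between any of the groups, which was so for 54.9% of all genes between cTnT+ and Flk1+Pdgfra+, 34.3% between Flk1+Pdgfra+ and Flk1+, and 47.4% between cTnT+ and Flk1+. Vim rose 1.36-fold in cTnT+ against Flk1+Pdgfra+ (13.82 ± 0.08 and 13.38 ± 0.06, limma adjusted p = 0.00202). In Flk1+Pdgfra+ against Flk1+ it fell by 0.30 log2 units (13.68 ± 0.01 in Flk1+, adjusted p = 0.0447). That call was lost with the replicate number as a block (adjusted p = 0.0691), without any 1 of the 6 progenitor arrays (0.0641 to 0.168) and without the second or the third cTnT+ array (0.0554 and 0.0522). It was also lost with median centring (0.16), quantile normalization (0.0582), every row tested (0.0815) and progenitor replicates 1 and 2 only (0.0722). Of 22 fits, 8 called it. Between cTnT+ and Flk1+ it differed by 0.15 (95% interval -0.03 to 0.32, adjusted p = 0.173).

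Fn1, the matrix protein fibronectin, on which migrating mesoderm and the early heart and vessels depend, read 13.46, 13.68 and 13.67 in cTnT+, 13.76, 13.77 and 13.86 in Flk1+Pdgfra+, and 13.78, 13.84 and 13.79 in Flk1+ (transcript cluster 6759621). The cTnT+ arrays were the lowest and the progenitor groups overlapped. No difference passed limma: -0.19 for cTnT+ against Flk1+Pdgfra+ (95% interval -0.39 to 0.00, adjusted p = 0.112), -0.20 for cTnT+ against Flk1+ (adjusted p = 0.102) and -0.01 for Flk1+Pdgfra+ against Flk1+ (-0.20 to 0.19, adjusted p = 0.967). In any group at most 0.279% of all rows were brighter than Vim and at most 0.146% brighter than Fn1. The highest value on any array was 14.2, and no saturation flag was used here.

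Epcam and Ocln stand for the epithelial state: Epcam is an adhesion molecule of epithelia and of embryonic stem cells, and Ocln (occludin) a membrane protein of tight junctions. Both are described in other systems as targets of E-box repressors, and for that reason the stretches just before and after their starts are shown, with that of Snai1 as a member of the repressor family. The sequences run 5′ to 3′ on the gene's strand, from 250 bases before to 50 bases after a RefSeq transcription start (build GRCm38.p6). Capitals mark CAGGTG or CACCTG, the 2 readings of the E-box preferred by Snail and Zeb proteins. The regions are chr17:87635729-87636028 (+) for Epcam, chr13:100552449-100552748 (-) for the downstream one of 2 Ocln starts, and chr2:167537945-167538244 (+) for Snai1.
Epcam: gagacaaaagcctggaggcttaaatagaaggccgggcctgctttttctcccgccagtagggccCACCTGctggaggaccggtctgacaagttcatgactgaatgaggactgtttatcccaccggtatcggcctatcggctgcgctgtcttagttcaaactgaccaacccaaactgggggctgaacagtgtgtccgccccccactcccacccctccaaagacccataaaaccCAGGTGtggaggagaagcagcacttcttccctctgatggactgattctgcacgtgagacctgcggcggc
Ocln: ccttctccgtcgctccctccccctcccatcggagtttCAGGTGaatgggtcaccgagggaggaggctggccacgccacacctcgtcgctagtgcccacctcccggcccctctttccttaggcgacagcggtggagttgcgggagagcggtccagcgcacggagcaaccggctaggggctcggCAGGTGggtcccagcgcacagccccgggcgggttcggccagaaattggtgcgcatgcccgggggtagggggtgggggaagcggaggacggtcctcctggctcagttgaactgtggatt
Snai1: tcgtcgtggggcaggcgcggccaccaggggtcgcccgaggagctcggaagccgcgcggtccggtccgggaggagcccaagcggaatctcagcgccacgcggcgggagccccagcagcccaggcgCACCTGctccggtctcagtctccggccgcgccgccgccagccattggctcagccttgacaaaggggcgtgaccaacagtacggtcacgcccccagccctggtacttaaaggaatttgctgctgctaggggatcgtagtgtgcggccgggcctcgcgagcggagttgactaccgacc
Epcam held the motif 187 and 19 bases before its start. Ocln held it 213 and 68 bases before this start. The upstream Ocln window held it only once, at the first of these sites, so the window shown is the one with more matches. Snai1 held it once, 126 bases before its start. Of 27025 genes with a promoter of this length, taking 1 promoter for each, 20.0% held the motif on either strand and 2.85% held it more than once. Promoters were read for 7 of the 10 genes and not for Snai2, Zeb1 and Fn1. Those of Twist1, Twist2, Zeb2 and Vim held no such letters. A match describes the sequence only and is no evidence of binding.

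Epcam was high in Flk1+Pdgfra+ progenitors and low in cardiomyocyte cultures. It read 6.70, 7.15 and 6.38 in cTnT+, 9.55, 9.70 and 9.83 in Flk1+Pdgfra+, and 6.96, 7.29 and 10.51 in Flk1+ (transcript cluster 6852882). The third Flk1+ array thus carried the highest value of all 9, while the other Flk1+ arrays lay near the cTnT+ range. Epcam fell by 2.95 log2 units in cTnT+ against Flk1+Pdgfra+, which is 7.71-fold (6.74 ± 0.39 and 9.69 ± 0.14, limma adjusted p = 0.0188). This call was lost without the second or the third Flk1+Pdgfra+ array or the first or the third cTnT+ array (adjusted p 0.051 to 0.0571). In a fit of these 6 arrays alone the adjusted p was 0.000256.

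Between the progenitor groups the Epcam difference of 1.44 did not pass (8.25 ± 1.96 in Flk1+, 95% interval -0.42 to 3.3, adjusted p = 0.310). Without the third Flk1+ array it was 2.57 and passed (adjusted p = 0.000634). Against Flk1+, cTnT+ differed by -1.51 (-3.36 to 0.35, adjusted p = 0.185), and by -0.38 without that array (adjusted p = 0.229). Over 8 pluripotency markers the mean log2 level was 6.27 to 6.68 in cTnT+, 8.16 to 8.49 in Flk1+Pdgfra+, and in Flk1+ 5.85, 6.20 and, on the third array, 8.76. Of these 8, 3 fell and 0 rose in cTnT+ against Flk1+Pdgfra+, and 1 rose and 0 fell in Flk1+Pdgfra+ against Flk1+. These counts became 6 that fell and 4 that rose without the third Flk1+ array, where 1306 of all genes rose in Flk1+Pdgfra+ against Flk1+. The part of these markers in the Epcam values was not tested.

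Ocln was dim throughout, and in cTnT+ against Flk1+Pdgfra+ it was called in the direction opposite to Epcam. In the other comparisons neither gene was called, and on the third Flk1+ array both read highest of their group. It gave 6.88, 7.83 and 5.88 in cTnT+, 5.17, 5.10 and 5.06 in Flk1+Pdgfra+, and 5.72, 5.38 and 6.24 in Flk1+ (transcript cluster 6815539). All cTnT+ arrays exceeded all Flk1+Pdgfra+ arrays, but they spread widely and overlapped Flk1+. Ocln rose 3.37-fold in cTnT+ against Flk1+Pdgfra+ (6.86 ± 0.98 and 5.11 ± 0.06, limma adjusted p = 0.0122), and the call held whichever array was left out, with differences of 1.27 to 2.24. All 3 Flk1+Pdgfra+ values lie under the first quartile of every array, which was 5.60 to 5.69, and the fold is no exact measure. The cTnT+ difference from Flk1+ was 1.08 (0.08 to 2.08, adjusted p = 0.0846), and 1.57 without the third cTnT+ array, which passed (adjusted p = 0.00788). Flk1+Pdgfra+ differed from Flk1+ by -0.67 (-1.67 to 0.33, adjusted p = 0.383), although these groups did not overlap.

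**Figure D3:**
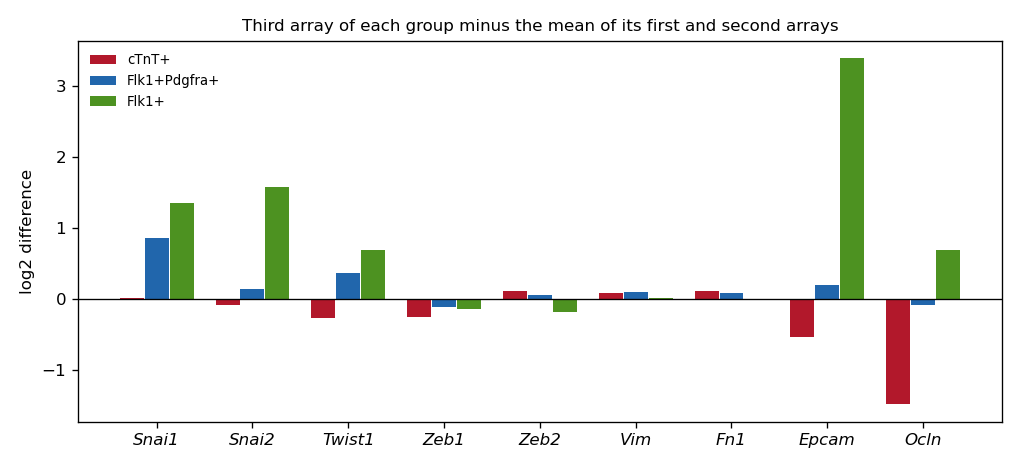
The third array of each group minus the mean of its first and second arrays (vertical axis, log2 units) for the 9 measured genes. The bar of Epcam in Flk1+ reaches 3.38, while Zeb1, Zeb2, Vim and Fn1 stay within 0.26 of 0 in every group.

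The third Flk1+ array did not depart evenly over the genes, as the plot of these departures shows. Relative to the mean of the first and second Flk1+ arrays it was higher by 3.38 for Epcam, 1.57 for Snai2, 1.35 for Snai1, and 0.69 each for Twist1 and Ocln. The Zeb genes departed by -0.14 and -0.19, and Vim and Fn1 by 0.02 and -0.02. The third Flk1+Pdgfra+ array was higher by 0.86 for Snai1 and by at most 0.36 for the other genes.

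The wider pathway was read from 6 lists, whose members were looked up in the same fit. Of 20 measured inducers of the transition, 6 rose and 1 fell in Flk1+Pdgfra+ against Flk1+ (median 0.39, against 0.068 for all genes). Mesp1, the factor of the first cardiovascular mesoderm, was 15.7-fold higher (10.29 ± 0.11 and 6.32 ± 0.09, limma adjusted p = 7.62e-07). Eomes, a T-box factor needed for mesoderm to leave the streak, was 3.41-fold higher (12.99 ± 0.02 and 11.22 ± 0.57, adjusted p = 0.0053), and the Nodal co-receptor Tdgf1 18.7-fold higher (adjusted p = 0.0448, or 0.0616 where the replicate number was a block). Tdgf1 is also on the list of pluripotency markers, and its call was lost without any 1 array other than the third Flk1+ and the second cTnT+ one (0.0528 to 0.158). It was 46.9-fold higher without the third Flk1+ array (adjusted p = 0.00219). The faller was the TGF-beta receptor Tgfbr2 (-1.38, adjusted p = 0.0139). Without the first or second array of either group 3 inducers rose and 0 fell. In cTnT+ against Flk1+Pdgfra+ 5 inducers rose and 8 fell (median -0.21, all genes 0.004). The streak factors Mixl1 (6.31 ± 0.15 and 13.63 ± 0.05) and Eomes and the ligand Wnt3 fell by 7.32, 6.09 and 4.45 log2 units (adjusted p = 4.54e-06, 4.97e-06 and 7.62e-06). The risers were Tgfb2 (2.54), Tgfb3 (2.66), Tgfbr1 (0.68), Tgfbr2 (2.00) and Hif1a (0.33). Against Flk1+ 6 rose and 5 fell in cTnT+ (median 0.11, all genes 0.053), where Mixl1 fell by 5.60, Eomes fell by 4.32 and Wnt3 fell by 3.40. Tgfbr2, Tgfb2, Tgfb3, Tgfbr1 and Hif1a were named after their values were seen.

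Mesenchymal genes rose mainly in the cardiomyocyte cultures. Of 21 measured genes of matrix, adhesion and cytoskeleton, 13 rose and 1 fell in cTnT+ against Flk1+Pdgfra+ (median 1.00). Desmin (Des), the muscle intermediate filament, was 22.6-fold higher (12.25 ± 0.17 and 7.75 ± 0.41, adjusted p = 1.25e-05), smooth muscle actin (Acta2), which embryonic cardiomyocytes also make, 16.0-fold (adjusted p = 0.0185) and tenascin C (Tnc) 7.87-fold (adjusted p = 0.000729). Without the first or second Flk1+Pdgfra+ array 8 rose, and Acta2 did not pass (adjusted p = 0.0614 and 0.0595), nor did it without the first cTnT+ array (0.0525). The faller was the cadherin Cdh11 (-1.45, adjusted p = 0.0199, chosen after its values were seen), and 0 fell without the first or second Flk1+Pdgfra+ or the first cTnT+ array. Set against Flk1+, cTnT+ had 13 that rose and 0 that fell (median 1.25), with Des 22.5-fold, Acta2 28.5-fold and Tagln 8.96-fold higher (adjusted p = 2.03e-05, 0.00838 and 0.00576). Acta2 was 80.9-fold and Tagln 15.1-fold higher there without the third Flk1+ array (adjusted p = 4.32e-05 and 0.000663). Between the progenitor groups 1 of the 21 rose and 1 fell in Flk1+Pdgfra+ (median 0.07): Cdh11 (3.84-fold, 12.87 ± 0.01 and 10.93 ± 0.62, adjusted p = 0.0202) and the matrix protein Sparc (-0.73, adjusted p = 0.00344). The Cdh11 call was lost without any 1 Flk1+Pdgfra+ array or without the first or second Flk1+ array (0.0558 to 0.0841). Without the third Flk1+ array 5 genes of the list rose, where 1306 of all genes did.

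Fibroblast, epicardial and smooth muscle markers were higher in the same cultures. Of 6 fibroblast and epicardial markers 5 rose and 0 fell in cTnT+ against Flk1+Pdgfra+, and their mean log2 level was 7.83 to 10.33 in cTnT+, 5.89 to 5.96 in Flk1+Pdgfra+ and 5.89 to 6.21 in Flk1+. Of 5 smooth muscle markers 3 rose and 0 fell, with means of 10.12 to 10.26, 8.02 to 8.78 and 7.40 to 9.04 in the same groups. All 6 measured cardiomyocyte markers rose, with means of 10.47 to 11.64, 6.34 to 6.55 and 6.40 to 6.58. Endoderm markers averaged 6.52 to 7.06, 6.76 to 6.96 and 6.83 to 6.97, and limma called 0 of 5 in each comparison (1, 1 and 3 had an unadjusted p under 0.05 in cTnT+ against Flk1+Pdgfra+, in Flk1+Pdgfra+ against Flk1+ and in cTnT+ against Flk1+). The smooth muscle markers Acta2 and Tagln are also on the mesenchymal list. On cTnT+ arrays 1, 2 and 3 the fibroblast and epicardial mean was 8.57, 7.83 and 10.33. The smooth muscle mean was 10.26, 10.12 and 10.25, and Snai2 read 12.76, 12.92 and 12.76. The share of these cell types in the rises of Snai2, Zeb1, Zeb2, Vim and the mesenchymal list was not tested.

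The epithelial genes were read from separate lists of regulators and of junction genes. Of 13 measured epithelial regulators 3 fell and 1 rose in cTnT+ against Flk1+Pdgfra+ (median -0.68). The splicing regulator Esrp1 fell by 3.05 log2 units (5.67 ± 0.19 and 8.72 ± 0.14, adjusted p = 0.0155), and the protease inhibitors Spint1 and Spint2 fell by 1.66 and 1.67 (adjusted p = 0.0143 and 0.0238). Without the third Flk1+ array 8 fell, and without the second Flk1+Pdgfra+ array 1 did. The call of Spint1 was lost without the second Flk1+Pdgfra+ array (adjusted p = 0.0502), and that of Spint2 without the first or second Flk1+Pdgfra+ array or the first or the third cTnT+ array (0.0633 to 0.0741). Of 17 measured genes of junctions and keratins, 4 rose and 0 fell (median 0.11): the keratin Krt19 by 2.88 (9.49 ± 0.19 and 6.61 ± 0.17, adjusted p = 0.000224), the polarity gene Llgl2 by 1.01, the junction adhesion molecule F11r by 0.78 and the scaffold Tjp1 by 0.49. Over all genes 22.5% rose and 18.7% fell in this comparison, and the difference between the lists was not tested. Without the third Flk1+ array 3 junction genes fell in this comparison. That array is in neither group compared here, and for both lists it bears on the shared estimate of the spread alone.

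Between the progenitor groups limma called 0 of 13 regulators (median 0.21, 3 with an unadjusted p under 0.05), and Spint2 came closest (1.31, limma adjusted p = 0.133). Of the junction genes 0 rose and 2 fell (median 0.03), Tjp1 by 1.04 (10.79 ± 0.06 and 11.82 ± 0.16, adjusted p = 0.00112) and F11r by 0.85 (adjusted p = 0.00768). Without the third Flk1+ array 7 regulators and 6 junction genes rose, where 1306 of all 14860 genes did, and Spint2 differed by 1.95 (adjusted p = 0.00164). In cTnT+ 1 regulator rose against Flk1+, Grhl1 (2.42-fold, adjusted p = 0.00277), and 1 fell, Klf5 (-1.40, adjusted p = 0.00379), with a median of -0.36. Of the junction genes 3 rose and 1 fell there (median -0.01), with Krt19 8.13-fold, the virus receptor Cxadr 3.21-fold and Llgl2 2.28-fold higher (adjusted p = 0.000224, 0.0121 and 0.00174), and 6 rose without the third Flk1+ array. Cdh1 and Cdh2, the cadherins whose exchange is the classical sign of the transition, were named after their values were seen. Cdh1 was at 7.37 ± 0.07 in cTnT+, 8.98 ± 0.30 in Flk1+Pdgfra+ and 8.55 ± 2.34 in Flk1+ and was called in no comparison. Leaving out the third Flk1+ array, Cdh1 passed as 1.61 log2 units lower in cTnT+ than in Flk1+Pdgfra+ and 1.78 higher in Flk1+Pdgfra+ than in Flk1+ (limma adjusted p = 0.000143 and 0.000792). With that array the Cdh1 difference of cTnT+ from Flk1+Pdgfra+ was also -1.61 (adjusted p = 0.222). The array entered that comparison only through the shared estimate of the spread. Cdh2 was at 12.70 ± 0.15, 12.62 ± 0.28 and 11.71 ± 0.50 in the same groups and rose in cTnT+ against Flk1+ (adjusted p = 0.0124), with adjusted p = 0.0521 between the progenitor groups and 0.829 between cTnT+ and Flk1+Pdgfra+. With the third Flk1+ array left out, Cdh2 also passed between the progenitor groups (1.19 higher in Flk1+Pdgfra+, adjusted p = 0.0047).

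**Figure D4:**
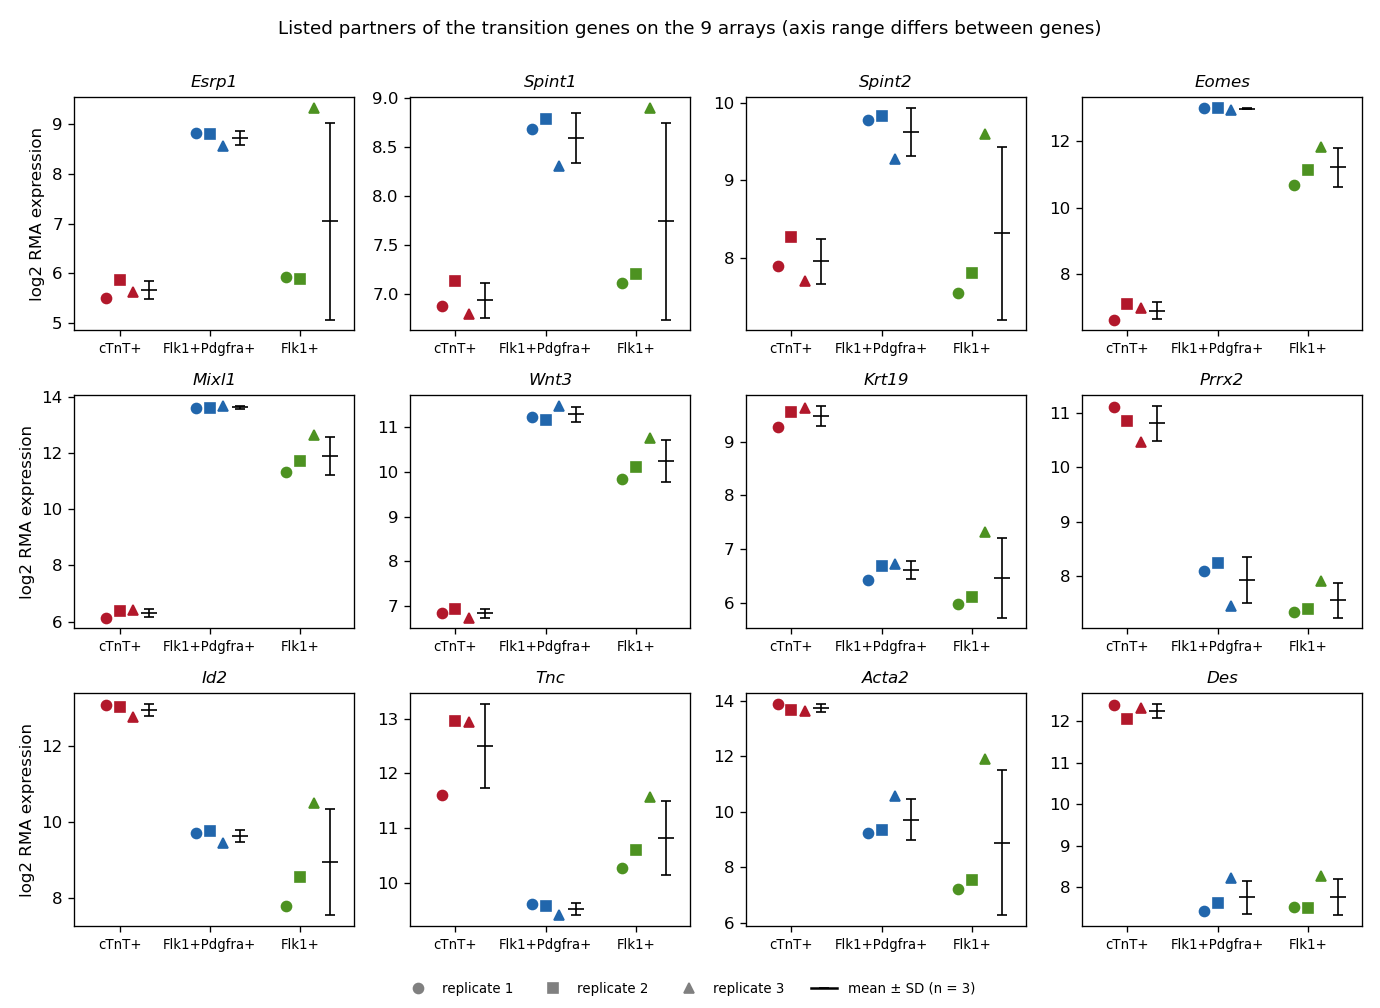
Expression of 12 genes of the pathway lists on each array (vertical axis, log2 RMA values, with a separate range for each gene) in cTnT+, Flk1+Pdgfra+ and Flk1+. Coloured symbols are arrays and black bars the mean ± SD of 3; Esrp1, Spint1 and Spint2 are high on the third Flk1+ array, as Epcam is, and Mixl1 lies between 6.14 and 6.40 in cTnT+.

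Among 18 other transcription factors of the transition, 3 rose and 3 fell in cTnT+ against Flk1+Pdgfra+ (median 0.20). That is 16.7% each way, where 22.5% of all genes rose and 18.7% fell. Id2, a helix-loop-helix inhibitor that lacks a DNA-binding part, was higher by 3.33 log2 units (12.96 ± 0.17 and 9.63 ± 0.16, adjusted p = 0.0021) and Prrx2, a paired homeobox gene of mesenchyme, 7.38-fold higher (adjusted p = 7.45e-05). Msx1, a homeobox target of BMP, fell by 2.22 (adjusted p = 0.0205). Without the first or second Flk1+Pdgfra+ or the first cTnT+ array 0 of the 18 fell, and 6 rose without the first cTnT+ array. The Msx1 call was lost without the first or second Flk1+Pdgfra+ array or the first or the third cTnT+ array (0.0642 to 0.0695). Against Flk1+ 4 rose and 1 fell in cTnT+ (median 0.49), with Id2 16.2-fold, Prrx2 9.55-fold and Sox4 2.28-fold higher (adjusted p = 0.000949, 5.86e-05 and 0.00741). Id2 was 27.9-fold higher there without the third Flk1+ array (adjusted p = 2.27e-05). Between the progenitor groups Msx1 rose 6.11-fold in Flk1+Pdgfra+ (adjusted p = 0.0337, or 0.053 with that block) and Ets1, a factor of endothelium and blood, fell by 1.75 (adjusted p = 0.00917), and 16 of 18 were not called (median 0.28). The Msx1 rise was lost without any 1 of the 6 progenitor arrays other than the third Flk1+ one (0.0611 to 0.125).

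Genes whose proteins bind, modify or degrade the Snail and Zeb proteins were followed as the last list. Of 11 measured, 4 rose and 3 fell in cTnT+ against Flk1+Pdgfra+ (median -0.02), 2 rose and 1 fell in Flk1+Pdgfra+ against Flk1+ (median 0.06), and 3 rose and 3 fell in cTnT+ against Flk1+ (median -0.09). Single arrays bore on these counts: 1 rose in the first of these comparisons without the second Flk1+Pdgfra+ array, 0 rose in the second without the first Flk1+Pdgfra+ array, and 1 fell in the third without the first or second array of either progenitor group or the first or the third cTnT+ array. Fbxl14, a ubiquitin ligase subunit that targets Snail protein for destruction, followed the order of Snai1 only in part: it fell by 1.52 in cTnT+ against Flk1+Pdgfra+ (9.10 ± 0.07 and 10.62 ± 0.26, adjusted p = 6.16e-05), rose 1.63-fold in Flk1+Pdgfra+ against Flk1+ (9.92 ± 0.07 in Flk1+, adjusted p = 0.0122) and fell by 0.81 in cTnT+ against Flk1+ (adjusted p = 0.00152). The second of these calls was lost without the first Flk1+Pdgfra+ array (0.0582). Lats2, a kinase that phosphorylates Snail protein, rose 1.85-fold in cTnT+ against Flk1+Pdgfra+ (adjusted p = 0.0409), a call lost without any 1 of the 3 cTnT+ arrays, the first or second Flk1+Pdgfra+ array or the second Flk1+ array (0.0590 to 0.138). Ezh2, of the Polycomb complex, fell by 0.45 (adjusted p = 0.00429). The corepressor Rcor1 fell by 0.54 in Flk1+Pdgfra+ against Flk1+ (adjusted p = 0.007), and the deacetylase Hdac2 rose by 0.31 (adjusted p = 0.0429, or 0.072 with the block). The Hdac2 call was also lost without any 1 of the 6 progenitor arrays (0.0511 to 0.139) and without the third cTnT+ array (0.0535). Against Flk1+, Btrc rose in cTnT+ by 0.55 and Kdm1a by 0.42 (adjusted p = 0.00306 and 0.00404).

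For the 5 genes whose group means spanned at least 1 log2 unit, the 3 genes with the nearest profile were sought, by the root mean square difference over the 9 arrays after each gene's own mean was subtracted. Nearest to Snai1 were Fabp7 (0.29 log2 units), Elovl2 (0.45) and Rhpn2 (0.51). Fabp7 averaged 9.21 in cTnT+, 11.04 in Flk1+Pdgfra+ and 8.28 in Flk1+. Nearest to Snai2 were Pde3a (0.25), Rbms3 (0.34) and Lbh (0.36). Pde3a averaged 10.75 in cTnT+, 7.21 in Flk1+Pdgfra+ and 6.40 in Flk1+. Zeb1 had the closest companions, Pacc1 (0.10), the junction protein plakoglobin Jup (0.12) and Mettl15 (0.12). Nearest to Epcam was Esrp1 (0.22), followed by Ppp4r4 (0.33) and Pla2g1b (0.37). Nearest to Ocln were Icam1 (0.23), Gabra4 (0.29) and Slc2a3 (0.31). Small distances come more easily to genes that vary little, and they describe these 9 arrays only.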

How the data were processed

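Expression was measured on 9 Affymetrix exon arrays. The authors deposited log2 values: per the labels, RMA values at the core-gene level from the Transcriptome Analysis Console software, and per the submitters' processing notes RMA and R 3.3.1. RMA corrects background, brings all arrays to one distribution and summarises probes, which removes differences in total RNA. Build and library version: not given in the sources used here. No detection call was used. Of 23332 rows, 14996 carried 1 symbol in the platform annotation, 1019 several and 7317 none. Current symbols came from the RefSeq table (GRCm38.p6) by Entrez identifier, for 14941 rows, and the brightest row per gene left 14860 genes.

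Groups were compared with limma 3.58.1 in R 4.3.3 (lmFit, eBayes, two-sided, all 9 arrays, 6 residual degrees of freedom), with Benjamini-Hochberg adjustment over all genes. The groups share an estimate of each gene's spread. Leaving out an array outside a comparison thus changes the p-values of that comparison but not its differences. The fit was also run on simulated arrays with known changes. Their noise was independent, with the same spread in every group and no deviating array, so they do not bear on such an array. The number of arrays limits the precision. Same-numbered arrays of the progenitor groups deviated together (correlations over genes of 0.251 to 0.460), but differently numbered arrays 1 and 2 did too (0.347 and 0.352), and only the third arrays stood apart by number. All 3 same-numbered correlations were over 0.1, so the replicate block is printed there where it changes a call. With cTnT+ the correlations were 0.0231 to 0.0951. Alternatives were the replicate block, a filter on the dimmest 25% of genes, quantile normalization, median centring, trended or no moderation, array weights, every row, the mean of a gene's rows, only the groups compared, and leaving out arrays.

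The genes, lists and alternatives were chosen with earlier results of these data known. Named were the listed genes and the sort markers, up to 3 called genes of each list with the largest change in a comparison (or the smallest p where none was called) and the 3 nearest profiles. Other names are said to be chosen after their values were seen. Among the listed pathway genes, T was not named by any row.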

Additional observations from a re-analysis of the deposited data

How the results depend on the processing

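The number of the 9 genes called in cTnT+ against Flk1+ was 2, and it was 4 with the replicate block, 4 with an intensity trend and robust moderation, 6 with array weights and 4 with progenitor replicates 1 and 2 only. Leaving out single arrays gave 2 to 4 there, 6 to 7 in cTnT+ against Flk1+Pdgfra+ and 3 to 5 in Flk1+Pdgfra+ against Flk1+. Without the third Flk1+ array the counts of these comparisons were 4, 7 and 5. All genes called without single arrays numbered 2656 to 3526 higher and 1880 to 2464 lower in cTnT+ against Flk1+. They numbered 2655 to 3603 higher and 2246 to 3004 lower in cTnT+ against Flk1+Pdgfra+. For the fits named first, the share of all genes called in cTnT+ against Flk1+ is not given here. With the replicate block, whose numbers do not pair cTnT+ with the progenitors, Snai1 and Twist1 passed in cTnT+ against Flk1+ (adjusted p = 0.0377 and 0.0458). In that fit no called difference of the 9 genes was lost except that of Vim. Differences near 0 changed sign in Flk1+Pdgfra+ against Flk1+: without single arrays Twist1 ran from -0.00431 (without the first Flk1+ array) to 0.45 and Fn1 from -0.04 upward, and Fn1 was 0.04 with quantile normalization, 0.01 with median centring, 0.01 without the first Flk1+Pdgfra+ array, 0.00438 without its second and 0.01 without the second Flk1+ array. Median centring moves cTnT+ by 0.11 relative to Flk1+Pdgfra+, and under it all 7 called genes kept their call and direction there, with adjusted p 0.0371 for Vim. Epcam in that comparison lost its call without moderation (adjusted p = 0.0531). In Flk1+Pdgfra+ against Flk1+, Vim lost its call with median centring (adjusted p = 0.16) and with quantile normalization (0.0582). Over all genes, the 690 higher and 872 lower in Flk1+Pdgfra+ against Flk1+ became 203 to 1306 and 461 to 1003 without single arrays, 1148 higher with progenitor replicates 1 and 2 only, and 4521 and 3017 with array weights. Median centring turned the 3348 higher and 2778 lower genes of cTnT+ against Flk1+Pdgfra+ into 2737 and 3187. With every row tested, 4076 rows were lower in cTnT+ against Flk1+, against 2464 genes with 1 row per gene. The causes were not tested. Low values such as those of Ocln have no set background.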
